A study of Mus musculus with 12 samples.

Results

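Kainate receptors are tetrameric glutamate-gated cation channels. Their subunits are encoded by GRIK1 to GRIK5 (proteins GluK1 to GluK5), and NETO1 and NETO2 encode transmembrane CUB-domain proteins that bind the assembled receptor and slow its gating. GluK1, GluK2 and GluK3, the low-affinity subunits, can form channels by themselves, whereas GluK4 and GluK5, the high-affinity subunits, reach the membrane only together with a low-affinity subunit. In the dorsal root ganglion and spinal dorsal horn, kainate receptors act before and after the synapse, and GluK1 is known for its place in nociceptive pathways. The members described here are these 7 genes, taken by symbol from the full deposited table. All 7 are listed, above and below the lesion, among 13957 distinct symbols.

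Bulk RNA-seq was done on spinal cord segments of male mice that carry the human ApoE4 variant and that received a contusion at thoracic level 9 at 4 months of age. Tissue was taken 14 days after injury from just above or just below the lesion. There were 3 libraries in each of 4 groups, namely synj1+/+ above, synj1+/- above, synj1+/+ below and synj1+/- below, 12 libraries in all. The experimental plan has 3 mice of each genotype for RNA-seq, so each mouse may have given a segment of either site; the labels do not pair them, and the sites cannot be taken as independent samples. synj1+/+ mice carry 2 intact copies of synaptojanin 1, the lipid phosphatase that degrades PIP2, and synj1+/- mice carry 1. ApoE4 and the contusion are shared by all 4 groups, so neither is compared here; ApoE3 and sham-operated animals were not analysed here.

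The deposited table gives a single value per gene, genotype and site that combines the 3 libraries. No spread between libraries can be computed from it, so no test was made, and the values below are the authors' pooled values. The values were read as FPKM (fragments mapped to a gene, scaled by transcript length and library size) plus 1. Levels are given as FPKM and ratios are given on the deposited scale, as the log2 ratio of synj1+/- over synj1+/+. A difference was counted as past the fold when the ratio reached 1.5 in either direction.

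SYNJ1 itself ran against the labels. Above the lesion it was listed at an FPKM of 1904 for synj1+/+ and 2403 for synj1+/-. The corresponding levels below were 1846 and 2592, and the log2 ratios were 0.34 and 0.49. The study's own RT-qPCR, on segments just above the lesion, gave lower synj1 mRNA in ApoE4 synj1+/- than in ApoE4 synj1+/+ mice. The study also names GRIK1 among its most highly altered genes above the lesion. It measured Grik1 by RT-qPCR in both genotypes, above and below the injury, but its text states no direction for Grik1. Its abstract reports genes of glutamatergic synaptic transmission as upregulated by the reduction of synj1, without naming them. Whether the labels of the RNA-seq groups are exchanged cannot be told from the pooled values. Every direction below is therefore that of the group labelled synj1+/-, and the shares of rows are given in both directions.

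The subunits are paralogs, and whether short reads can tell them apart was examined first. The longest coding sequences of Grik1 and Grik2 were identical at 72.7% of aligned bases, and those of Grik1 and Grik3 at 71.2%. Identity of Grik1 with Grik4 and Grik5 was 59.7% and 60.7%, Grik4 and Grik5 shared 72.2%, and Neto1 and Neto2 shared 66.7%. The following 60 bases of coding sequence, from the GENCODE M21 transcripts of GRCm38, hold the longest identical run between Grik1 and Grik2, 35 bases. They are shown because they hold that run, and the 60 bases with the fewest differences were not searched for. Capitals mark bases that differ from Grik1.
Grik1: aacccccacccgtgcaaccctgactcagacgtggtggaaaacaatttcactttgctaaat
Grik2: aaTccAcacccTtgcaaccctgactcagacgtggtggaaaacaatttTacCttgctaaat
Grik3: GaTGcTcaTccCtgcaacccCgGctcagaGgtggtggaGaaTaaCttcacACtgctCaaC
The stretch covers positions 1816 to 1875 of the Grik1, 1771 to 1830 of the Grik2 and 1777 to 1836 of the Grik3 coding sequence, counted from the A of the start codon, and lies between the first membrane segment and the pore loop. Grik2 differed from Grik1 at 5 of the 60 bases and Grik3 at 16. None of the 6806 distinct 50-base words of the Grik1 transcripts occurred in a transcript of another member, and the same held for each of the other members. Some words occurred in transcripts of genes outside the family, on either strand. For Grik1 these were 18 words, or 0.264%, and the share ran from 0% for Neto2 to 2.04% for Neto1.

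GRIK1, which encodes GluK1, was the member with the largest difference between genotypes. The gene lies at chr16:87895900-88290265 on the minus strand of GRCm38, has 11 transcript models and is overlapped by no other annotated gene. Its FPKM was 26.8 in the synj1+/+ group above the lesion, 54.5 in the synj1+/- group above, 27.4 in the synj1+/+ group below and 40.5 in the synj1+/- group below. The 2 synj1+/+ groups were close to each other, and both synj1+/- groups were higher than both of them. Above the lesion the log2 ratio was 0.99, a ratio of 1.99, which ranked 19 from the highest of 13647 rows. Below the lesion the log2 ratio was 0.54, a ratio of 1.46, which ranked 189 of 12338 rows. The log2 ratio below minus that above was -0.45, and this difference was not tested.

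Above the lesion GRIK1 was thus the only 1 of the 7 members past 1.5-fold. Of all listed rows, 0.791% were past 1.5-fold higher and 1.94% past 1.5-fold lower. Below the lesion 0 of 7 members were past it, where 1.16% of rows were higher and 4.38% lower by that rule. At a lower limit, a log2 ratio of at least 0.32, GRIK1 below the lesion was the single member counted as higher, against 8.06% of rows higher and 11.5% lower. Among the 7552 rows above the lesion with a mean value from 10 to 100, the range that holds GRIK1, 0.662% were past 1.5-fold higher and 1.51% past it lower.

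**Figure D1:**
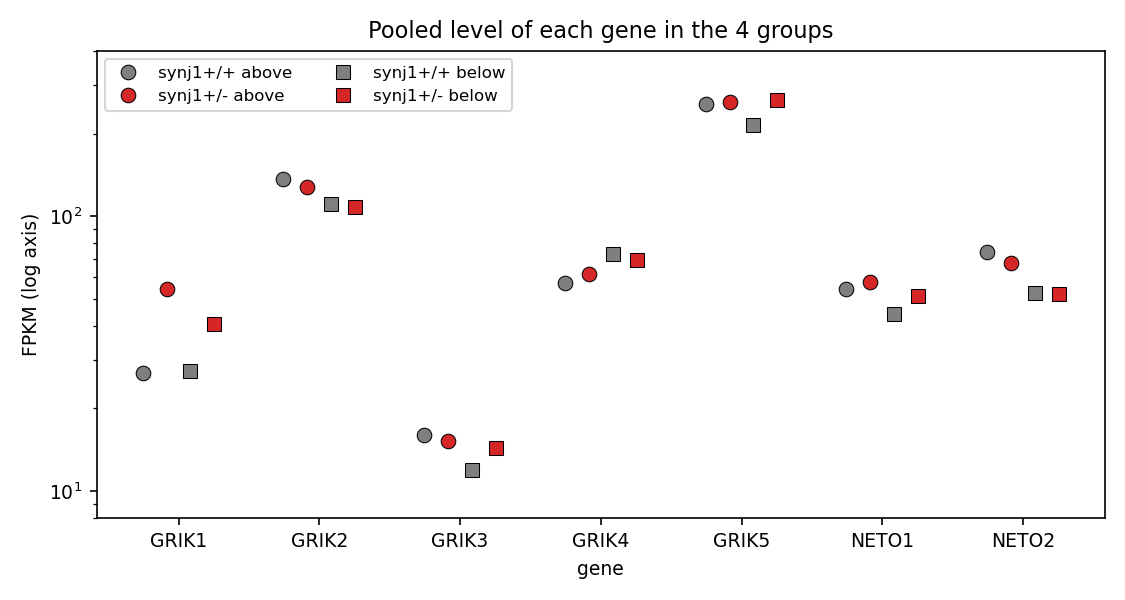
Pooled FPKM (log axis) of each member in the 4 groups, gray for synj1+/+ and red for synj1+/-, circles above and squares below the lesion; each point is the authors' value for 3 libraries, so there is no error bar. GRIK1 is at 26.8 and 27.4 in the synj1+/+ groups and at 54.5 and 40.5 in the synj1+/- groups. At each site the genotypes of every other member lie closer together than those of GRIK1.

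The other low-affinity subunits did not share this difference in size. GRIK2, at chr10:49094833-49788766, encodes GluK2, a main pore-forming subunit in the brain. Its FPKM was 137 (synj1+/+) and 127 (synj1+/-) above the lesion and 111 and 108 below. The log2 ratios were -0.10 and -0.04, and the values above the lesion were higher than those below in both genotypes. GRIK3, at chr4:125490700-125714173, encodes GluK3, a subunit with very low glutamate sensitivity, and was the lowest member in every group. Its FPKM was 16.0 and 15.3 above and 12.0 and 14.3 below, with log2 ratios of -0.06 and 0.24.

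Both high-affinity subunits are listed at higher levels than GRIK1. GRIK5, at chr7:25009849-25072346, encodes GluK5, the usual partner of GluK2 in heteromers, and was the highest member in every group. Its FPKM was 257 (synj1+/+) and 261 (synj1+/-) above the lesion and 215 and 265 below. The genotypes were nearly level above, with a log2 ratio of 0.02, and stood further apart below, with 0.30, the second highest ratio of a member there. GRIK4, at chr9:42518135-42944493, encodes GluK4. Its FPKM was 57.2 and 61.8 above and 72.8 and 69.5 below, with log2 ratios of 0.11 and -0.07. GRIK4 was the only member whose level was higher below than above the lesion in both genotypes. The small RNA gene Gm24420 shares 59 of its exon bases.

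The auxiliary subunits also differed little between genotypes. NETO1, at chr18:86394952-86506718, had an FPKM of 54.2 and 57.8 above and 44.0 and 51.4 below, with log2 ratios of 0.09 and 0.22. An annotated antisense gene shares 219 of its exon bases, and the library kit does not mark strand, so reads there cannot be assigned to either. NETO2, at chr8:85636588-85700924, had an FPKM of 74.2 and 67.4 above and 52.5 and 51.9 below. Its log2 ratios were -0.14 and -0.02, and its genotype values below differed by less than 1 FPKM unit. The microRNA gene Mir8109 shares 20 of its exon bases. GRIK2 is overlapped by 6 and GRIK3 by 2 small or noncoding genes, in introns only, and none of the genes overlapping a member is listed in the table.

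Over the 7 members the median log2 ratio was 0.02 above the lesion, beside -0.00 over all rows, and 4 of 7 were higher in the synj1+/- group, where 49.0% of all rows were. Below the lesion the median was 0.22, beside 0.01 over all rows, and again 4 of 7 were higher, where 52.8% of all rows were. Both counts are near the share over all rows. Without GRIK1 the remaining 6 members ranged from -0.14 to 0.11 above and from -0.07 to 0.30 below. Members differed in which site had the larger ratio. GRIK3, GRIK5, NETO1, NETO2 and GRIK2 had a log2 ratio that was higher below than above, by 0.30, 0.28, 0.13, 0.12 and 0.07, whereas GRIK1 and GRIK4 had a lower one there, by -0.45 and -0.18.

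**Figure D2:**
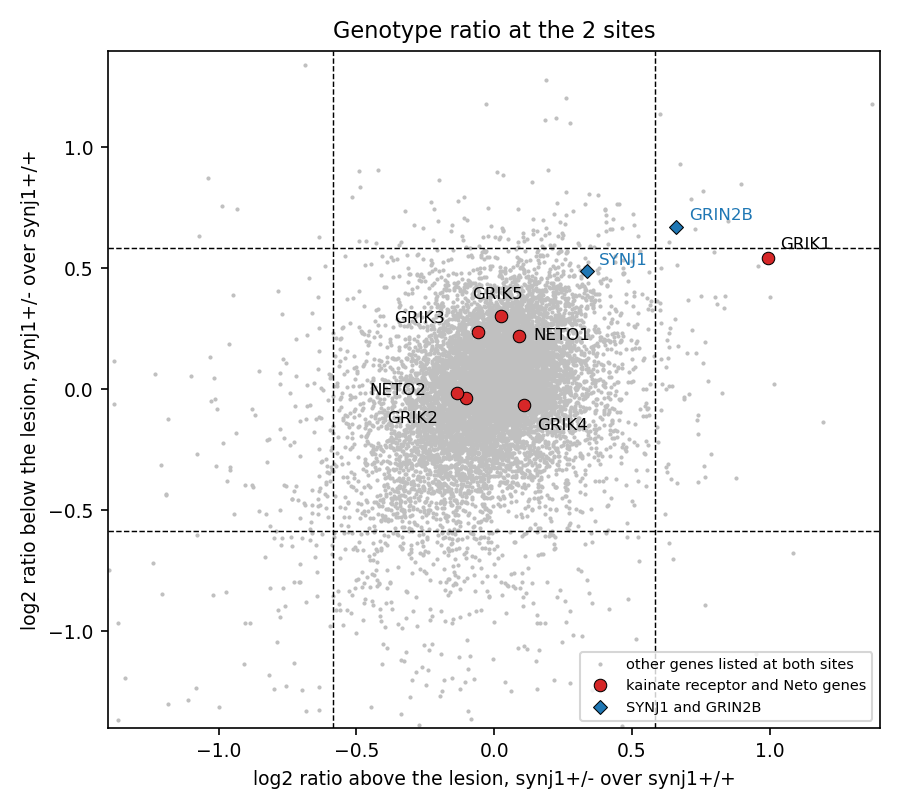
Log2 ratio of synj1+/- over synj1+/+ above the lesion (x axis) and below it (y axis) for genes listed at both sites, with the 7 members in red, SYNJ1 and GRIN2B in blue and dashed lines at 1.5-fold; genes beyond 1.4 log2 units are outside the axes. GRIK1 stands at 0.99 and 0.54, and the other 6 members lie within the cloud of all genes.

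The sites were set side by side within each genotype, although reads were reduced and normalized for each site separately. In the synj1+/+ groups the log2 ratio of below over above was -0.49 for NETO2, -0.39 for GRIK3, -0.30 for GRIK2, -0.29 for NETO1, -0.26 for GRIK5, 0.03 for GRIK1 and 0.34 for GRIK4. Thus 5 of 7 were lower below the lesion, whereas 49.8% of 12023 genes were higher there. The member median was -0.29 beside -0.00 over these genes. Lower values below were not particular to the members in synj1+/+. Most AMPA, NMDA and delta glutamate receptor genes listed at both sites were lower there too. Examples are CACNG3 at -0.58, GRIN2B at -0.34 and GRIA2 at -0.22, while a minority, such as CACNG2 at 0.22, were higher. Between the synj1+/- groups most of those receptor genes were higher below. In the synj1+/- groups the ratio was -0.42 for GRIK1, -0.37 for NETO2, -0.24 for GRIK2, -0.16 for NETO1, -0.09 for GRIK3, 0.02 for GRIK5 and 0.17 for GRIK4. Again 5 of 7 were lower below the lesion, whereas 55.5% of genes were higher there. The member median in synj1+/- was -0.16 beside 0.02. No member was past 1.5-fold in either genotype, where 4.6% of genes in synj1+/+ and 2.26% in synj1+/- were, in either direction.

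The order of levels above the lesion was GRIK5, GRIK2, NETO2, GRIK4, NETO1, GRIK1 and GRIK3 in both genotypes, and below the lesion GRIK4 and NETO2 exchanged places. Which neighbours in this order differ beyond their spread cannot be given from pooled values. GRIK4 and NETO1 were close above (57.2 and 54.2 in synj1+/+), as were GRIK1 and NETO1 in the synj1+/- group above (54.5 and 57.8). Levels of different genes carry a further limit. Across 13429 genes above the lesion, the listed synj1+/+ value had a Spearman correlation of 0.50 with the number of transcript models of the gene and of 0.25 with its exon bases, while the log2 genotype ratio had -0.01 with the number of models. The median listed value was 10.4 for genes with 1 model and 509 for genes with over 20. SYNJ1, with 12 models, was listed at 1905, beside 1854 for ACTB and 187 for RPLP0. Levels of different genes may thus not compare as FPKM should. GRIK3 has 1 model, GRIK4 2, NETO1 3, NETO2 5, GRIK5 7, and GRIK1 and GRIK2 11 each. The order of genes and the shares that follow may therefore carry this property of the table, and its part in them was not tested.

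GRIK1 made up 5.44% of the summed FPKM of GRIK1 to GRIK5 in the synj1+/+ group above the lesion and 10.5% in the synj1+/- group above. Below the lesion the shares were 6.27% and 8.13%. The summed FPKM was 494 and 520.4 above and 438 and 497 below. Above the lesion the sum without GRIK1 was 467 in synj1+/+ and 466 in synj1+/-, so GRIK1 accounts for the gap between the genotypes. Below the lesion the sum without GRIK1 was 410.3 and 457, and GRIK5 had the largest difference of the 4 subunits there. GRIK2 held 27.7% and 24.5% above and 25.3% and 21.7% below. The ratio of GRIK1 to GRIK2 was 0.196 and 0.427 above and 0.248 and 0.375 below. The high-affinity subunits together held 63.6% and 62.1% above and 65.7% and 67.3% below. For the auxiliary pair, the ratio of NETO2 to NETO1 was 1.37 and 1.17 above and 1.19 and 1.01 below, lower in the synj1+/- group at both sites.

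**Figure D3:**
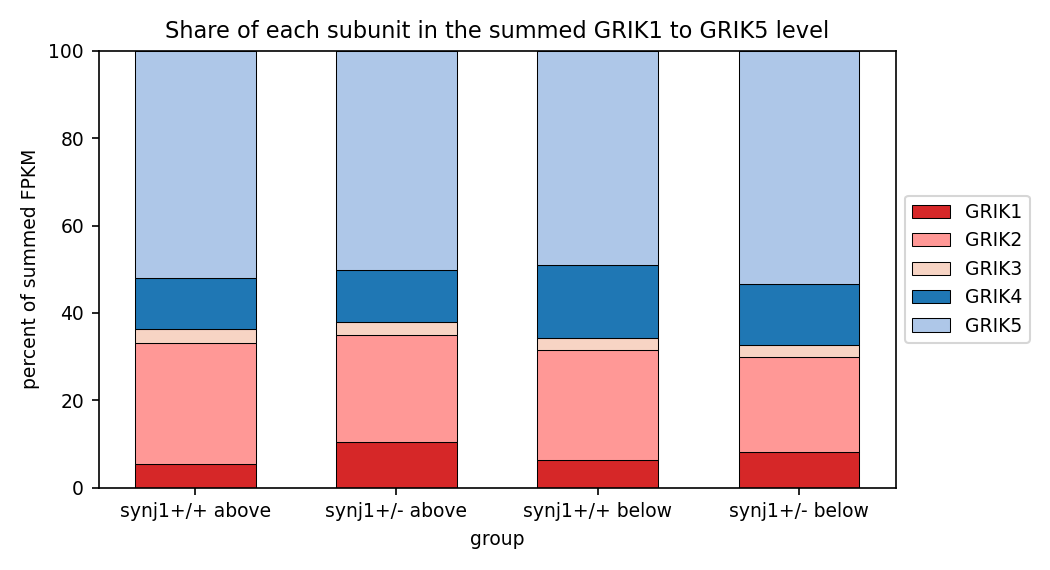
Percent of the summed FPKM of GRIK1 to GRIK5 held by each subunit in the 4 groups, low-affinity subunits in red shades and high-affinity subunits in blue shades. GRIK1, at the foot of each bar, goes from 5.44% to 10.5% between genotypes above the lesion and from 6.27% to 8.13% below, and GRIK5 is the largest part of every bar.

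The genes that traffic, anchor or modify kainate receptors were read next. Of 21 such genes, 19 are listed above and 16 below the lesion. None was past 1.5-fold at either site, and the median log2 ratio was -0.00 above and 0.14 below. KLHL24, an adaptor that interacts with GluK2, was the lowest above the lesion, with an FPKM of 30.4 and 23.1 there and 25.5 and 20.5 below, and log2 ratios of -0.38 and -0.30. C1QL3, a secreted C1q-like synaptic organizer, had the highest ratio below the lesion, 0.41, from an FPKM of 7.07 to 9.68. NRXN3, the neurexin to which C1q-like proteins can bind together with kainate receptors, had ratios of -0.01 and 0.25. DLG4, which encodes the scaffold PSD-95, had 0.06 and 0.22, and ADAR, an RNA editing enzyme, had 0.07 and 0.24.

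The other ionotropic glutamate receptors give a comparison within the same libraries. Of 15 AMPA receptor and auxiliary genes, 14 are listed above with a median log2 ratio of 0.09 and none past 1.5-fold. Below the lesion 11 are listed with a median of 0.24, and CACNG3, a transmembrane AMPA receptor regulatory protein, was past 1.5-fold at 0.60, with an FPKM of 5.96 and 9.54. GRIA2, the subunit that limits calcium entry, had an FPKM of 914 and 915 above and 788 and 819 below. Of 9 NMDA and delta receptor genes, all are listed above with a median of -0.02, and 7 below with a median of 0.25. GRIN2B, which encodes the NMDA receptor subunit GluN2B, was the single gene of these 2 lists past 1.5-fold above the lesion. Its FPKM was 19.1 and 30.9 above and 15.0 and 24.5 below, with log2 ratios of 0.66 and 0.67. No gene of these lists reached the ratio of GRIK1 above the lesion, whereas CACNG3 and GRIN2B exceeded it below.

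GRIK1 was then read beside markers of the cells a segment holds. In bulk tissue, fewer cells of a type and less RNA per cell cannot be told apart. Of 20 pan-neuronal genes, 17 are listed above the lesion with a median log2 ratio of 0.08 and a highest of 0.26, and 15 below with a median of 0.20 and a highest of 0.54, that of SYT1. GRIK1 exceeded these medians by 0.91 above and 0.35 below. The median over the 7 members below, 0.22, was close to the pan-neuronal median there. The 13 markers of dorsal horn excitatory neurons had a median of 0.22 above and 0.33 below, with 2 genes past 1.5-fold higher below, the neuropeptide genes GRP at 0.72 and TAC2 at 0.66. Spinal inhibitory neuron markers had a median of 0.12 over 11 genes above and 0.38 over 10 below, where the neuropeptide gene NPY was past 1.5-fold lower at -0.63 and the mean of the list was 0.24. Summed over its markers as FPKM, the pan-neuronal list went from 13832 in synj1+/+ to 15317 in synj1+/- above and from 11819 to 14743 below. SNAP25 alone went from 5238 to 6247 above and from 5271 to 6928 below, so this gene made up much of the rise. The excitatory list went from 917 to 1056 above and from 892 to 1105 below, and the inhibitory list from 1076 to 1115 and from 898 to 1175. In the synj1+/- group 13 of 17 pan-neuronal genes were higher above and 14 of 15 below. For excitatory markers the counts were 11 of 13 at either site, and for inhibitory markers 9 of 11 above and 8 of 10 below. Of all rows, 49.0% were higher above and 52.8% below. By median, these neuronal lists were thus higher in the synj1+/- group, more so below, and their part in the member ratios was not tested.

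Markers of other cells differed between genotypes as well. Of 10 astrocyte markers, all listed, 1 was higher above and 1 below, with medians of -0.15 and -0.14. Microglia and macrophage markers had a median of -0.42 over 12 genes above, 3 of them past 1.5-fold lower, and -0.63 over 10 genes below, 6 of them past it; their sum was 2381 and 1778 above and 3653 and 2145 below. Fibroblast and meningeal markers had a median of -0.41 above, with 1 of 10 past 1.5-fold lower (median -0.13 over those with a mean value of at least 10), and -2.86 below, with 9 of 10 past it, and sums of 197 and 149 above and 928 and 207 below. All 5 erythroid genes, led by hemoglobin genes, were past 1.5-fold higher above the lesion with a median of 2.17, and 1 was below, with a median of 0.37. Their sum was 248 and 1133 above and 629 and 825 below. They are the only genes of any list whose ratio reached that of GRIK1 above the lesion. Oligodendrocyte precursor markers had medians of -0.13 and -0.12 and mature oligodendrocyte markers -0.10 and 0.03. Motor neuron markers had medians of 0.04 and 0.20, and 5 of 8 were higher above and 5 of 6 below. Above the lesion CALCA, the gene of calcitonin gene-related peptide, was past 1.5-fold higher at 0.59. CHAT, SLC5A7 and SLC18A3 were lower there, at -0.35, -0.13 and -0.11. Endothelial markers had medians of 0.07 and -0.02. Of 10 Schwann cell and sensory ganglion markers, 2 are listed above and 3 below, with medians of 0.36 and -0.37. Neuronal and glial markers of the labelled tissue are thus listed at every site. Whether the composition of the segments has a part in the GRIK1 difference was not tested.

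**Figure D4:**
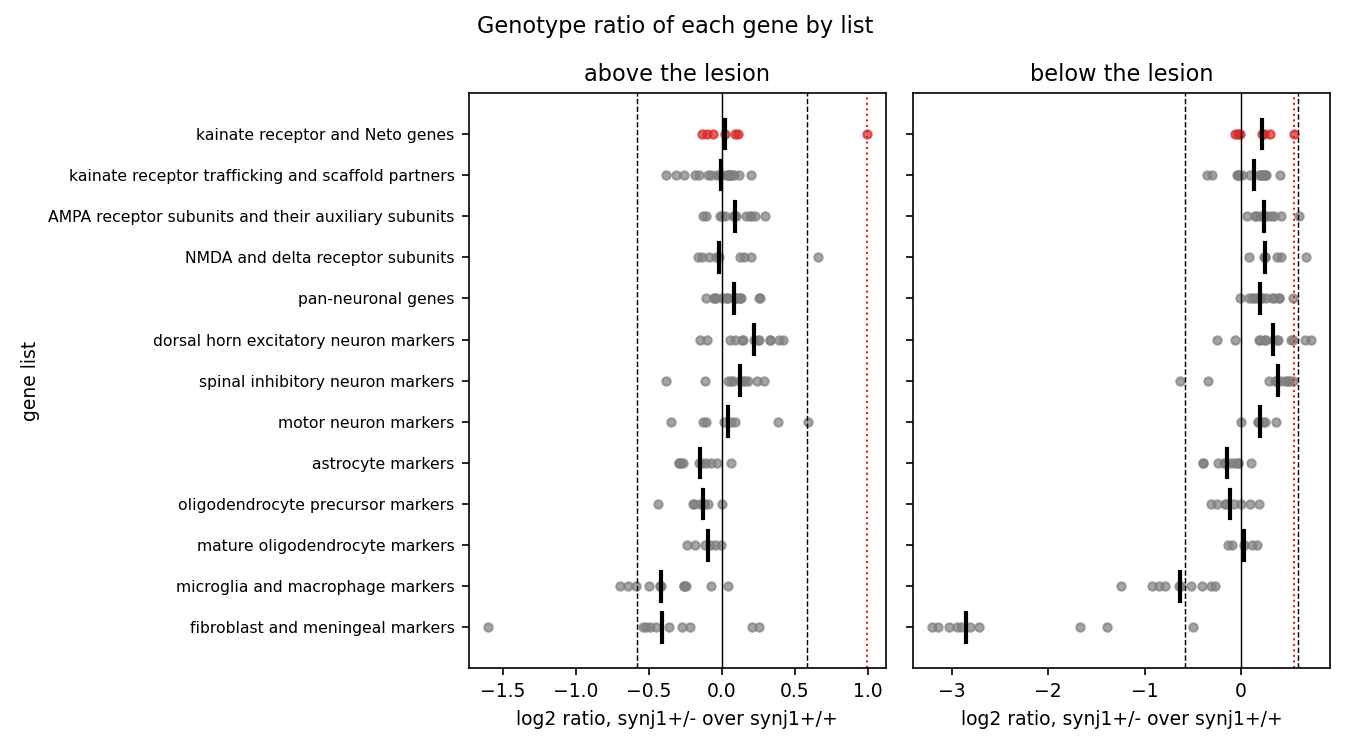
Log2 ratio of synj1+/- over synj1+/+ for each listed gene of the members (red) and of 12 of the 15 gene lists (gray), above (left) and below the lesion (right, on a wider axis), with black bars at the medians, dashed lines at 1.5-fold and a dotted red line at GRIK1. The endothelial, Schwann cell and erythroid lists are not drawn; all 5 erythroid genes are past the line of GRIK1 at 0.99 above the lesion, and no gene of the lists drawn reaches it. Below the lesion the medians of the neuronal lists are between 0.20 and 0.38, and those of microglia and fibroblast markers are at -0.63 and -2.86.

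GRIK1 and SYNJ1 lie on the same chromosome, 2.65 Mb apart, and the genes around GRIK1 were read for that reason. Within 1 Mb, 6 other genes are listed, with log2 ratios from -0.25 to 0.17 above the lesion and from -0.21 to 0.33 below, none past 1.5-fold. The nearest listed gene on the other side from SYNJ1 is BACH1, a transcription repressor of heme oxygenase 1, at 0.163 Mb, with ratios of -0.25 and -0.21. The nearest listed gene on the side of SYNJ1 is TIAM1, a Rac exchange factor, at 1.497 Mb, with 0.11 above and 0.48 below. Within 4 Mb, 0 of 37 genes were past 1.5-fold above the lesion, and 2 of 41 below, both lower.

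**Figure D5:**
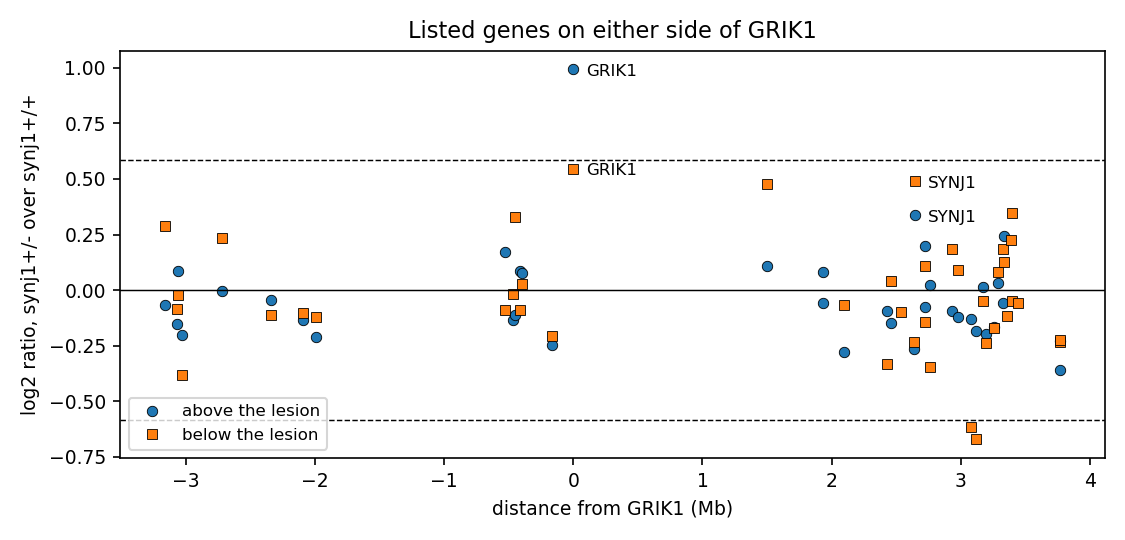
Log2 ratio of synj1+/- over synj1+/+ for listed genes within 4 Mb of GRIK1, by distance from GRIK1 in Mb, circles above and squares below the lesion, with dashed lines at 1.5-fold. GRIK1 stands alone past the upper line above the lesion, and the 6 genes within 1 Mb lie between -0.25 and 0.33.

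The genes whose levels over the 4 groups were most like those of GRIK1 were found by the distance between log2 values, each gene centred on its own mean, over 9649 genes listed at both sites with a mean value of at least 10. HES5, a transcriptional repressor downstream of Notch, was nearest at a distance of 0.126, with log2 ratios of 0.96 above and 0.51 below. CCSER1 followed at 0.139, with 0.80 and 0.57, and GNG13, a G protein gamma subunit, at 0.195, with 0.85 and 0.70. With only 4 pooled values a gene, such likeness is a description. The nearest other member, NETO1, was at 0.679, in place 919. Of 12023 genes listed once at both sites, 82 were past 1.5-fold higher above the lesion, 29 of these also had a log2 ratio of at least 0.32 below, and 3, counting GRIK1, had ratios at least as high as GRIK1 at both sites.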

How the data were processed

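Total RNA of spinal cord segments was made into TruSeq v2 libraries, which do not mark strand. The submitters' processing notes name STAR 2.5.4b, Cuffdiff 1.3.0 and GRCm38.p6. Reads were reduced at random to the smallest library of each site before alignment, and values were normalized by upper quartile. The deposited table has 25985 rows, 13647 above and 12338 below the lesion, and names no unit; its values were read as FPKM plus 1, because the authors used Cuffdiff and the lowest deposited value is 1. It has 0 columns of single libraries, so library depth, error and tests could not be computed. The authors' own comparison columns (ratios, log2 ratios, p-values and q-values) and their shorter list selected by p-value were not used.

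Log2 ratios of the deposited values were computed with Python 3.11.15, numpy 2.4.6 and pandas 2.3.3, correlations with scipy 1.17.1, coding alignments with Biopython 1.88 and plots with matplotlib 3.10.9. Positions, transcript models and sequences come from GENCODE M21 on GRCm38. Named are all members, SYNJ1, genes past 1.5-fold in the glutamate receptor lists, up to 3 per cell list, the 3 genes most like GRIK1, genes overlapping a member and the nearest listed genes beside GRIK1. KLHL24, C1QL3, NRXN3, DLG4, ADAR, GRIA2, CACNG2, SYT1, SNAP25, CHAT, SLC5A7, SLC18A3, ACTB and RPLP0 were chosen after their values were seen. The members and lists were chosen with earlier results of these data known. Alternatives were other folds and offsets, centring, a minimum value, the mean of a list and other denominators. ApoE3 libraries were not analysed here.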

Additional observations from a re-analysis of the deposited data

How the results depend on the processing

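With 1 pooled value per group, no result here has an error, and a difference between groups cannot be set against the spread of animals. No paired analysis was possible because the results come from no test and the table pools the libraries of a group, and for the same reason no library could be left out. Of 72 alternative values for the main results, 60 stayed within the tolerance and 12 moved. The tolerance was a log2 shift under 0.1, 1 percentage point for a share and 1.5 times for a count. A change of sign was looked for only where a difference was past 1.5-fold. Among the main results this was only the ratio of GRIK1 above the lesion, which kept its sign. With 10 added to each value, the log2 ratio of GRIK1 was 0.79 above and 0.42 below, and the member median below was 0.14, from 0.22. Centred on the pan-neuronal genes, the log2 ratio of GRIK1 below was 0.35 and the median over the members below was 0.024, and in the synj1+/- groups the site ratio was -0.55 for GRIK1 and -0.29 for the member median. At 2-fold, 0 members were past the fold above, although GRIK1 with the offset of 1 taken off was at 1.02 on the log2 scale, past 2-fold, and at a log2 limit of 0.32, 1 was higher below. As a share of GRIK1 to GRIK3 only, GRIK1 held 14.9% in synj1+/+ and 27.6% in synj1+/- above, and 18.3% and 24.9% below. Of 156 such values for other members and lists, 17 moved. Pan-neuronal centring turned the sign of the member median above the lesion, that of GRIK5, to -0.06 from 0.02. Over markers with a mean value of at least 10, the fibroblast median above was -0.13.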
